A study of Mus musculus with 12 samples.

Results

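Maturation of the wild-type (WT) mouse heart was read from the 3 libraries titled WT P56 set against the 3 titled WT P3, across all genes, so the comparison uses 6 of the 12 RNA-seq libraries of the series. The hearts came from C57BL/6 mice at 3 days and at 8 weeks after birth (postnatal days 3 and 56, written P3 and P56). WT animals were littermates of a transgenic line, D1-Tg, in which the αMHC (Myh6) promoter drives full-length mouse Dyrk1b cDNA in cardiomyocytes; WT hearts carry no transgene and received no treatment. The other 6 libraries, 3 of D1-Tg at P3 and 3 at P56, entered the filter for genes tested, the scaling and the estimate of the spread between replicates. They are compared with WT only in the last comparison below. RNA was extracted with Trizol from frozen heart. The labels do not say whether a library is 1 heart, which chambers were kept, the sex of the animals or the time of day, so the p-values measure the spread between these libraries, which may be partly technical.

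In the days after birth mouse cardiomyocytes leave the cell cycle, replicate DNA without dividing and then grow by enlargement. Fetal forms of sarcomere proteins are exchanged for adult forms, T-tubules and an abundant sarcoplasmic reticulum are built, and the fuel shifts from glucose and lactate toward fatty acids burned in a much larger mitochondrial compartment. Thyroid hormone, which rises in the first weeks of mouse life, is a known regulator of part of this programme.

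Total counts were 15742474 to 16756522 in the WT P3 libraries and 11174527 to 12099794 in the WT P56 libraries. Values below are counts-per-million values (CPM) scaled by the trimmed mean of M-values (TMM), and a fold change is WT P56 over WT P3 on the log2 scale with its standard error (SE). A gene was called when its edgeR adjusted p was under 0.05. Of 14212 genes tested, 4799 (33.8%) were called higher at P56 and 4994 (35.1%) lower; 2056 (14.5%) were called and at least 2-fold higher and 2103 (14.8%) at least 2-fold lower. The median log2 fold change over all genes tested was -0.03, with quartiles of -0.60 and 0.57. The 3 libraries of one age did not overlap those of the other for 10364 genes (72.9%), so a call or a separation of the groups is common in these data and the gene groups below are read against these shares. The split between higher and lower rests on the scaling. With plain library totals the median moved by -0.34, 3128 genes were called higher and 7407 lower, and the share of calls that were higher went from 49% to 29.7%. The first principal component of the 6 libraries held 87.2% of the variance and separated the ages. WT P3 replicate 1 differed most from the others of its group, and summed Y-linked transcripts were 2.7 CPM in WT P3 replicate 2 against 111.7 to 185.6 CPM in the other 5 libraries. Cardiomyocyte markers were high in every library, 49872 to 59369 CPM in sum at P3 and 99235 to 102281 CPM at P56, and all 10 were called higher (4 higher and 1 lower with plain library totals, and 8 to 10 higher when 1 library was left out). In whole-heart RNA, fewer cells of a type and less RNA per cell cannot be told apart. Members of near-identical families (Myh6 and Myh7, Acta1 and Actc1, the H2-Q and Hba genes, Tgtp2) are uncertain, since the handling of reads that map to several genes is not given in the sources used here.

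**Figure D1:**
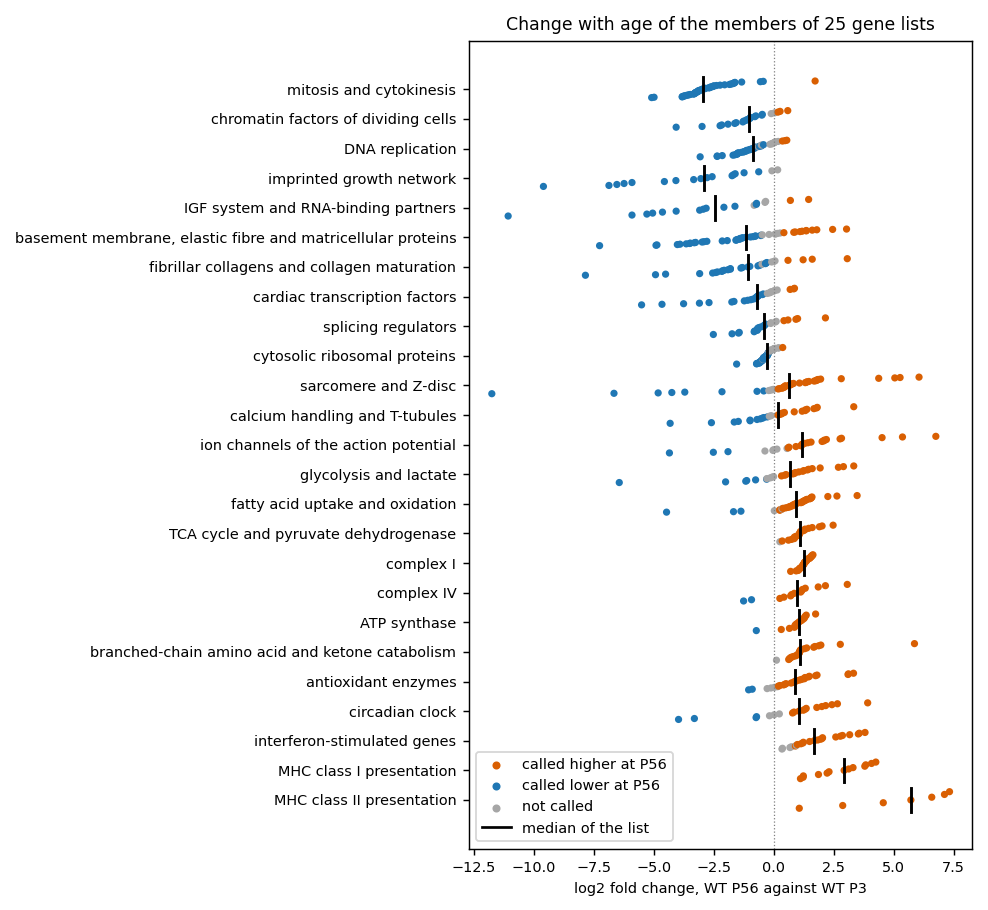
Log2 fold change of WT P56 against WT P3 for the tested members of 25 gene lists. Each point is a gene, orange where it was called higher, blue where it was called lower and grey where it was not called, and the black bar is the median of the list, which runs from -2.95 for mitosis to 5.72 for MHC class II presentation.

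Genes of cell division were lower at P56 almost without exception. Of 49 tested genes of mitosis and cytokinesis, 48 were called lower, 46 of them by at least 2-fold, with a median log2 fold change of -2.95. Ccnb1, the cyclin that starts mitosis, read 40.9, 22.2 and 31.8 CPM at P3 and 0.675, 1.37 and 0.701 CPM at P56 (log2 fold change -5.08 ± 0.37 SE, edgeR adjusted p = 1.25e-07). Cdc25c, the phosphatase that activates its kinase, had a log2 fold change of -4.98 (-5.63 without WT P56 replicate 3). Mki67, the antigen used to mark cycling cells, read 81, 75.5 and 81.9 CPM at P3 and 10.8, 11.7 and 8.31 CPM at P56 (-2.95 ± 0.12 SE, edgeR adjusted p = 1.16e-09). The groups were far apart for each of these genes. The 1 member called higher was Pttg1 (securin, the inhibitor of the protease that separates sister chromatids), at 34, 34.8 and 33.5 CPM against 110, 108 and 121 CPM (1.73 ± 0.07 SE, edgeR adjusted p = 6.23e-10).

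Genes of DNA replication fell by less. Of 42 tested, 29 were called lower and 3 higher, with 18 lower by at least 2-fold and a median of -0.85. Top2a, which untangles replicated DNA, read 70.9, 51.5 and 63.3 CPM at P3 and 7.52, 7.93 and 6.7 CPM at P56 (-3.06). Rrm2, the ribonucleotide reductase subunit that limits nucleotide supply, was lower at P56 (-2.35). The MCM genes, which encode the replicative helicase, were low in WT P3 replicate 1. Mcm6 read 25.1, 52.2 and 47.9 CPM at P3 and 16, 17.4 and 15.9 CPM at P56 (-1.34 ± 0.24 SE, edgeR adjusted p = 0.000311), and Mcm5 read 8.91, 22.4 and 22 CPM against 8.87, 8.21 and 6.8 CPM (-1.16 ± 0.33 SE, edgeR adjusted p = 0.00768). For Mcm5 that P3 library was level with the highest P56 library. Cdc6, which loads the helicase, read 1.5, 4.24 and 4.17 CPM against 1.25, 1.64 and 2 CPM (-1.02 ± 0.41 SE, edgeR adjusted p = 0.0412). Its groups overlapped, and the call was lost without WT P3 replicate 2 or 3 or WT P56 replicate 1 or 2. The 3 called higher were Dut, Rpa2 and Rpa1, with log2 fold changes of 0.55, 0.48 and 0.37, and none of them was called with plain library totals. Both single-strand binding subunits also serve DNA repair.

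Regulators of the cycle were mixed. Of 31 tested cyclins, cyclin-dependent kinases, inhibitors and E2F factors, 16 were called lower and 6 higher (median -0.44). E2f2 and E2f8, which act in S phase, had log2 fold changes of -2.08 and -1.70, and Cdk6, a kinase of the G1 phase, -1.54. Ccng1, a target of p53, read 234, 293 and 283 CPM at P3 and 1278, 1225 and 1289 CPM at P56 (2.23 ± 0.10 SE, edgeR adjusted p = 2.10e-09), and E2f6, a repressor of the E2F family, had 1.37. Cdkn1a, the p21 inhibitor, was not called (-0.23 ± 0.55 SE, edgeR adjusted p = 0.721): it read 114, 50.6 and 47.6 CPM at P3 and 36.9, 41 and 103 CPM at P56, so that 1 library stood apart at each age. Cdkn1c, the imprinted p57 inhibitor, was lower at P56 (-1.23). Of 23 tested chromatin factors of dividing cells, 18 were called lower and 3 higher (median -1.02), with 1 higher without WT P56 replicate 3. Hmga2, an architectural protein of fetal chromatin, had -4.06, Lmnb1, a lamin of proliferating cells, -2.98, and Hmgb2 -2.23. Within the Polycomb methyltransferases Ezh2 read 22.7, 24.6 and 27.2 CPM at P3 and 5.4, 5.47 and 5.8 CPM at P56 (-2.16), while its paralogue Ezh1, the form of resting cells, was higher at P56 (0.59, not called with plain library totals).

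The start-site sequences of these genes are shown because short motifs of cell cycle promoters were common in the windows of one list or the other. Mitotic genes are known to be repressed in resting cells through a cell cycle homology region and activated through the boxes bound by the NF-Y factor, and replication genes are known to be controlled through E2F sites. The window searched ran from 250 bases before to 50 bases after each RefSeq start on GRCm38.p6, on both strands, and a match is a description and not a bound site. The homology region was searched as TTTGAA, the NF-Y box as CCAAT and the E2F site as TTTCCCGC or TTTGGCGC. The 150 bases before the start are printed below for 4 mitotic genes that hold a homology region and an NF-Y box, with both motifs in capitals (TTCAAA and ATTGG are the same motifs on the other strand).
Cdc20 (chr4:118437344-118437493, minus strand): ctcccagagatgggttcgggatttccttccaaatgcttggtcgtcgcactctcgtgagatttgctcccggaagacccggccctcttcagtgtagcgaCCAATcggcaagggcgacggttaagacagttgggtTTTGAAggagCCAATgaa
Ect2 (chr3:27153879-27154028, minus strand): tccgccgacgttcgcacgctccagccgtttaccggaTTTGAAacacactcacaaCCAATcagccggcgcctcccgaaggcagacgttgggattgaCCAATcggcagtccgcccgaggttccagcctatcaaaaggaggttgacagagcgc
Kif11 (chr19:37376232-37376381, plus strand): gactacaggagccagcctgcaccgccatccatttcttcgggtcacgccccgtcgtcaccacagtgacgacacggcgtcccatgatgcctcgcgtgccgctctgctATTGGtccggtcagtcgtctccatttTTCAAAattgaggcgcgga
Cdk1 (chr10:69352913-69353062, minus strand): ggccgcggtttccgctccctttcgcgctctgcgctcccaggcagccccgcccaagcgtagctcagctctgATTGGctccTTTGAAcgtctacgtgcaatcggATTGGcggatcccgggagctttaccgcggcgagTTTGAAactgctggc

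Cdc20, the activator of the anaphase protease, read 30.1, 21.8 and 28.1 CPM at P3 and 2.41, 2.28 and 2.2 CPM at P56 (log2 fold change -3.53). Ect2, which starts the cleavage furrow, had -3.34, Kif11, the motor that separates spindle poles, -3.15, and Cdk1, the mitotic kinase, -3.06. In each the P56 libraries lay far below the P3 libraries. The homology region was present in 31 of 44 windows of the mitosis list (70.45%), against 12.21% of the windows of all tested genes and 17.89% of all 32851 windows. The homology region was near background in the DNA replication list (13.16%), as was the E2F site in the mitosis list (2.273%). The NF-Y box was present in 68.18% of the windows of the mitosis list and in 37.41% of the windows of tested genes and of all windows, but lists that rose held it as often (TCA cycle 65.38%, class I presentation 75%). The E2F site stood in 11 of 38 windows of the DNA replication list (28.95%), against 2.666% of the windows of tested genes and 1.565% of all windows. Median GC content was 60.5% in the windows of the mitosis list and 60.33% in those of tested genes. The 150 bases of 3 replication genes follow, with the E2F site in capitals (GCGCCAAA and GCGGGAAA read on the other strand).
Mcm6 (chr1:128359706-128359855, minus strand): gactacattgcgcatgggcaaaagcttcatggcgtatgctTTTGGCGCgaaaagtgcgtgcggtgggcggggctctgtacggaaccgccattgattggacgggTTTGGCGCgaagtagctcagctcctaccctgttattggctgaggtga
Mcm5 (chr8:75109359-75109508, plus strand): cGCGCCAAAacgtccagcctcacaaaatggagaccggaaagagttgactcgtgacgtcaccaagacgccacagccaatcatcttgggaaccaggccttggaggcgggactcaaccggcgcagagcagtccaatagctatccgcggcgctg
Cdc6 (chr11:98908001-98908150, plus strand): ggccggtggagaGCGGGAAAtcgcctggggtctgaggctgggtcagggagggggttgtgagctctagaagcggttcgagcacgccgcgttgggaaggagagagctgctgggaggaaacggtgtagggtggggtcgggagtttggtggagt

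**Figure D2:**
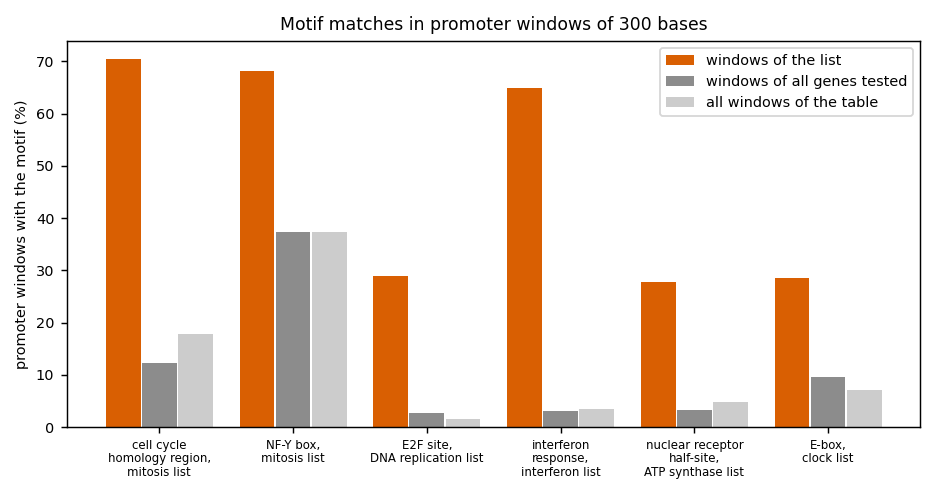
Share of promoter windows of 300 bases that hold a motif, in percent. Orange bars are the windows of the named list, dark grey bars the windows of all tested genes and light grey bars all windows of the table; each list stands above both backgrounds, with the smallest ratio for the NF-Y box (68.18% against 37.41%).

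Exchange of isoforms was the pattern with the widest range. In 20 pairs of related genes, 1 known as the fetal, ubiquitous or growth form and the other as the adult or muscle form, the log2 ratio of the adult to the early gene was higher in all 3 P56 libraries than in all 3 P3 libraries for 19 pairs. In 15 pairs the early gene was called lower and the adult gene higher. With plain library totals 12 of these kept both calls, since Tnnt2 (0.04), Ezh1 (0.25) and Cpt1b (-0.08) were not called, and Pgam1 lost its call without WT P3 replicate 3, WT P56 replicate 1 or WT P56 replicate 3. Troponin I, the inhibitory subunit of the thin filament, moved most. Its slow skeletal form Tnni1 read 1216, 1423 and 1375 CPM at P3 and 0.289, 0.365 and 0.5 CPM at P56 (-11.74 ± 0.24 SE, edgeR adjusted p = 1.76e-11), and the cardiac form Tnni3 read 1317, 1652 and 1730 CPM against 5825, 5461 and 5781 CPM (1.86 ± 0.10 SE, edgeR adjusted p = 1.22e-08). The ratio thus shifted by 13.67 on the log2 scale.

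The myosin heavy chains exchanged in the same sense. Myh7, the slow β chain that dominates in the fetal mouse ventricle, read 21029, 14554 and 12829 CPM at P3 and 157, 150 and 176 CPM at P56 (-6.65 ± 0.62 SE, edgeR adjusted p = 1.01e-06). Myh6, the fast α chain, read 11184, 16957 and 17099 CPM against 38239, 41209 and 39282 CPM (1.39 ± 0.15 SE, edgeR adjusted p = 3.85e-06). WT P3 replicate 1 had the most Myh7 and the least Myh6 of its group, and the ratio shifted by 8.03. For tropomyosin, which covers the myosin sites on actin, Tpm2 was lower (-2.15) and Tpm1 higher (1.80). For the essential light chains the ratio of Myl3, the ventricular form, to Myl4, the atrial and fetal form, shifted by 6.29, but Myl4 varied widely within each age, at 319, 198 and 680 CPM against 1.83, 20.4 and 41.1 CPM (-4.24, -3.62 without WT P3 replicate 3 and -5.15 without WT P56 replicate 3). The pair of sarcomeric actins went the other way: Acta1, the skeletal form, read 50.2, 143 and 91.2 CPM at P3 and 540, 314 and 249 CPM at P56 (1.96 ± 0.35 SE, edgeR adjusted p = 0.000268), while Actc1, the cardiac form, rose by 0.35 (log2), a call that was lost with plain library totals (0.01). The ratio of Actc1 to Acta1 therefore moved by -1.65.

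**Figure D3:**
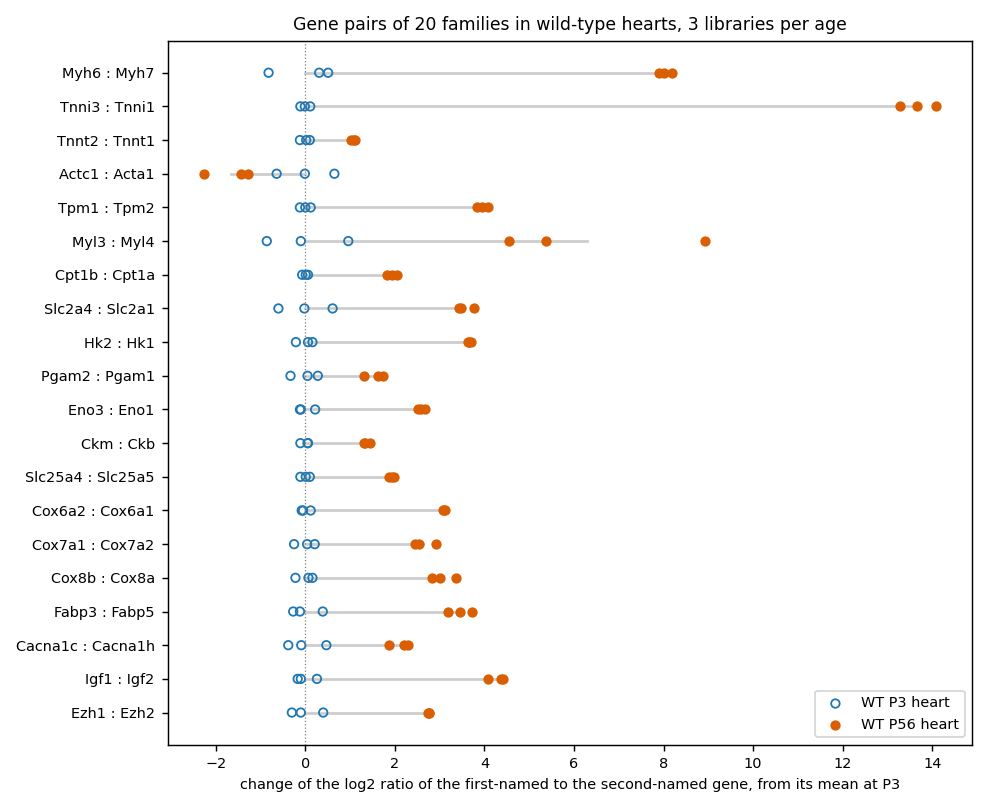
Change of the log2 ratio within 20 gene pairs, measured from the mean of the 3 WT P3 libraries. Open blue points are P3 libraries, filled orange points P56 libraries and grey lines join the means; the P56 points lie above the P3 points in 19 pairs, up to a shift of 13.67 for Tnni3 to Tnni1, and below them for Actc1 to Acta1.

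Metabolic pairs shifted by less than the pairs of troponin I, the myosin chains and tropomyosin. The ratio of Hk2, the insulin-responsive hexokinase of adult muscle, to Hk1 shifted by 3.66, that of the insulin-responsive glucose transporter Slc2a4 (GLUT4) to Slc2a1 (GLUT1) by 3.56, and that of the muscle fatty acid binding protein Fabp3 to Fabp5 by 3.46. Slc2a4 read 70.7, 80.6 and 70.3 CPM at P3 and 779, 741 and 723 CPM at P56 (3.34 ± 0.10 SE, edgeR adjusted p = 8.69e-11), whereas Slc2a1 was not called (-0.28 ± 0.23 SE, edgeR adjusted p = 0.294). The log2 ratio of Slc2a4 to Slc2a1 varied within P3, at 0.31, 1.53 and 0.90. Muscle subunits of cytochrome oxidase rose relative to the general ones in the 3 pairs measured, Cox6a2 to Cox6a1 (3.10), Cox8b to Cox8a (3.07) and Cox7a1 to Cox7a2 (2.64). In the last pair the general gene also rose (0.43, not called with plain library totals). Muscle enolase Eno3 to Eno1 (2.60), the carnitine palmitoyltransferase Cpt1b to Cpt1a (1.93), the adenine nucleotide carrier Slc25a4 to Slc25a5 (1.93), Pgam2 to Pgam1 (1.56) and creatine kinase Ckm to Ckb (1.37) moved likewise. Outside metabolism, the ratio of Ezh1 to Ezh2 shifted by 2.76. The smallest shift toward the adult gene was that of troponin T, Tnnt2 to Tnnt1 (1.07).

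Beyond these exchanges, sarcomere and Z-disc genes rose on balance: 31 of 43 were called higher and 8 lower, with a median of 0.64. These calls became 22 higher and 12 lower with plain library totals (median 0.29). The steepest rises were in genes of the Z-disc and its signalling. Tcap (telethonin, which caps titin at the Z-disc) read 48.3, 64.5 and 71.1 CPM at P3 and 2075, 1958 and 2079 CPM at P56 (5.05 ± 0.15 SE, edgeR adjusted p = 9.82e-11). Myot (myotilin) had 6.06 and Trim54, a microtubule-associated ubiquitin ligase of the sarcomere, 5.27. Other early forms fell. Myl7, the atrial regulatory light chain, read 303, 136 and 606 CPM at P3 and 0.0964, 15.4 and 21.7 CPM at P56 (-4.81, -4.15 without WT P3 replicate 3 and -5.47 without WT P56 replicate 3). Myh8, the perinatal skeletal myosin, had no count at P56 and was at least 40.8-fold lower there, with the group floor set at 3 counts. It is not on the sarcomere list but among the skeletal muscle markers, of which 5 of 9 tested were called lower and 2 higher. Without WT P3 replicate 2 or any WT P56 replicate 3 of these markers were lower. The part of skeletal muscle tissue in the Myh8 value was not tested. Myl4 and Myl7 are themselves on the list of atrial markers given with the cell types below; the other markers of that list were also lower at P56 in sum, and the part of atrial tissue in these values was not tested.

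Calcium handling genes were called in both directions. Of 27 tested, 14 were called higher and 11 lower, against 33.8% and 35.1% of all genes tested. The median of 0.18 became -0.16 with plain library totals. Genes of the sarcoplasmic reticulum moved in both directions. Atp2a2, the calcium pump SERCA2, read 5727, 5091 and 4973 CPM at P3 and 17963, 18837 and 17436 CPM at P56 (1.78 ± 0.09 SE, edgeR adjusted p = 4.66e-09). Hrc, the histidine-rich calcium buffer of its lumen, read 107, 144 and 132 CPM against 1278, 1299 and 1302 CPM (3.34). S100a1, a calcium sensor that raises pump activity, had 1.82, and Pln (phospholamban, the brake on the pump) 1.32. Sln (sarcolipin, an inhibitor of the pump that is also on the atrial list below) read 46.6, 13.02 and 110.6 CPM at P3 and 0, 2.92 and 5.7 CPM at P56 (-4.31 ± 1.42 SE, edgeR adjusted p = 0.0166), a call that was lost without WT P3 replicate 3 (-3.38, edgeR adjusted p = 0.0649), without WT P56 replicate 1 (-3.74, 0.0591) or without WT P56 replicate 2 (-4.34, 0.0524). Itpr1, the inositol trisphosphate receptor channel, fell as well (-0.55). Genes of calcium flux across the surface membrane included steep declines. Slc8a1, the sodium-calcium exchanger, read 1447, 1233 and 1249 CPM against 406, 446 and 404 CPM (-1.64), and Cacna1h, a T-type channel of the fetal heart, fell (-2.59). Ryr2, the release channel, had 0.34 ± 0.12 SE with an edgeR adjusted p of 0.0201; 1 P3 library (1757 CPM) lay close to the P56 libraries, and the call was lost when WT libraries were fitted alone (edgeR adjusted p = 0.0712).

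Ion channels of the action potential rose as a group, with 19 of 27 called higher, 3 lower and a median of 1.18. Scn4b, a sodium channel β subunit, read 0.668, 0.371 and 0.264 CPM at P3 and 61.4, 41.2 and 40.2 CPM at P56 (6.76 ± 0.34 SE, edgeR adjusted p = 4.88e-09). Genes of the fast transient outward potassium current, which shortens the adult mouse action potential, were both higher: Kcnd2 (the pore) by 2.77 and Kcnip2 (its accessory subunit) by 2.02. Kcnv2, a silent potassium channel subunit, had 5.37 and Hcn2, a pacemaker channel, 4.52. The steepest decline was in Kcne1, the subunit that slows the delayed rectifier current, which read 136, 190 and 174 CPM against 8.77, 7.93 and 7.91 CPM (-4.34 ± 0.22 SE, edgeR adjusted p = 4.62e-09). Kcna4, the pore of the slow transient outward current, fell as well (-1.90). At the intercalated disc, where cells join, 8 of 18 genes were called lower and 3 higher. The gap junction genes Gja5 and Gjc1 had -2.91 and -1.16 and the adhesion molecule Cdh2 (N-cadherin) -0.67, whereas Tmem65 had 1.68 and the anchoring protein Ank2 0.67.

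Energy metabolism rose across every respiratory complex. All 36 genes of the complex I list, which are nuclear-encoded, were called higher, 34 of them by at least 2-fold. Within the list they kept to a narrow range from 0.71 to 1.64 around a median of 1.28. Complexes II and III with cytochrome c had 14 of 14 called higher (median 1.17), complex IV 12 of 14 (0.99) and ATP synthase 15 of 16 (1.05). The 2 members of complex IV called lower were Cox6a1 and Cox8a, the general forms described above, and the member of the ATP synthase list called lower was Atpif1 (-0.72), the inhibitor that blocks its reverse reaction. Ndufs7, a subunit of the electron path of complex I, read 119, 145 and 144 CPM at P3 and 496, 385 and 386 CPM at P56 (1.64). Cycs, cytochrome c itself, rose by 1.47. Of 22 genes of the citric acid cycle and pyruvate entry, 21 were called higher and none lower (median 1.09). Mpc1 and Mpc2, the carrier that brings pyruvate into mitochondria, had 2.48 and 1.91 and Ogdh, a rate-controlling dehydrogenase of the cycle, 2.02. Idh2 was the member that was not called (0.26 ± 0.11 SE, edgeR adjusted p = 0.0512).

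Fatty acid genes rose in 31 of 36 cases and fell in 3 (median 0.91). Dgat2, which makes triglyceride, read 73.7, 79.8 and 62.3 CPM at P3 and 874, 717 and 819 CPM at P56 (3.48 ± 0.19 SE, edgeR adjusted p = 1.01e-08). Lpl, the lipase that frees fatty acids at the capillary wall, had 2.64, Plin5, a droplet protein tied to mitochondria, 2.26, Acadm, the medium-chain dehydrogenase, 1.57 and the transporter Cd36 0.90. Among those that fell were Cpt1a (-1.67) and the thioesterase Acot2 (-1.36). Bdh1, which oxidises β-hydroxybutyrate, read 3.4, 2.81 and 3.54 CPM at P3 and 196, 210 and 165 CPM at P56 (5.87 ± 0.25 SE, edgeR adjusted p = 1.49e-09), and Oxct1, the enzyme that activates acetoacetate, had 2.78. In the list that joins their breakdown to that of branched-chain amino acids, 23 of 24 genes were called higher and none lower (median 1.08).

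Glycolysis was not lower as a whole: 16 of 26 genes were called higher and 6 lower (median 0.66). The split was nearer to even with plain library totals, at 13 higher and 10 lower (median 0.32). Besides Slc2a4 and Hk2 (2.91), the rises included Pfkfb1 (2.70), which makes the activator of phosphofructokinase. Among the 6 that fell were the brain and fetal aldolase Aldoc at 11.6, 18.5 and 13.2 CPM against 0, 0.182 and 0.3 CPM (-6.43, and -7.16 without WT P56 replicate 3), the lactate exporter Slc16a3 (a mean of 11.9 CPM at P3 and 2.95 CPM at P56), Pfkp (-1.16) and Eno1 (-1.12). Genes that feed growth were more often lower than higher: of 22 genes of the pentose phosphate, serine, one-carbon and nucleotide pathways 11 were called lower and 5 higher (median -0.32), with the serine synthesis enzymes Psat1 and Phgdh at -2.39 and -2.21.

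Carriers of high-energy phosphate and oxygen rose. Mb (myoglobin) read 1343, 2430 and 2094 CPM at P3 and 19401, 16808 and 18655 CPM at P56 (3.23 ± 0.20 SE, edgeR adjusted p = 2.69e-08), and Ckmt2, the creatine kinase of heart mitochondria, had 3.93. Among antioxidant enzymes 22 of 28 were called higher and 2 lower (median 0.89; 1 lower without WT P3 replicate 3 or any WT P56 replicate), led by the quinone reductase Nqo1 (3.33), the mitochondrial and peroxisomal glutathione transferase Gstk1 (3.12) and the extracellular superoxide dismutase Sod3 (3.10). Of 25 regulators of mitochondrial biogenesis and dynamics 19 were called higher and 3 lower (median 0.56). Plain library totals gave 13 higher and 5 lower (median 0.21). Rxrg, a retinoid X receptor, read 1.06, 2.17 and 1.74 CPM at P3 and 83.6, 78.6 and 74 CPM at P56 (5.56). Perm1, a muscle coregulator of these genes, had 2.53, the fatty acid sensor Ppara 1.93, the oestrogen-related receptors Esrrb 1.94 and Esrra 0.91. Ppargc1a, the coactivator PGC-1α, was not called (0.31 ± 0.16 SE, edgeR adjusted p = 0.108): it read 192, 133 and 121 CPM at P3 and 195, 174 and 182 CPM at P56, with WT P3 replicate 1 at the level of the P56 libraries. The factors called lower were Pprc1 (-0.65), Nrf1 (-0.53) and Gabpa (-0.32).

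Oestrogen-related receptors bind an extended nuclear receptor half-site, and 2 ATP synthase promoters that hold it, searched as AAGGTCA, are shown with the match in capitals (TGACCTT is the other strand). The half-site was found in 5 of 18 windows of the ATP synthase list (27.78%), against 3.23% of the windows of tested genes and 4.718% of all windows. The other respiratory lists stood nearer to these backgrounds or held few windows: the share was 8.824% in the complex I list (3 of 34), 11.11% in that of complexes II and III (1 of 9), 3.846% in the TCA cycle list (1 of 26) and 0% in the complex IV list (0 of 11).
Atp5l (chr9:44920743-44920892, minus strand): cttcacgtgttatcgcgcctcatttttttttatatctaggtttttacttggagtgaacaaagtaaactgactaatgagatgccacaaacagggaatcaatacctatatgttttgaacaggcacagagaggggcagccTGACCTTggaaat
Atp5g3 (chr2:73911327-73911476, minus strand): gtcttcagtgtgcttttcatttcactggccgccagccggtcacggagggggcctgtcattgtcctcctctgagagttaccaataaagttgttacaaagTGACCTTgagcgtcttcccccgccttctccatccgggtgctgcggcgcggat

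Atp5l and Atp5g3 encode a subunit of the membrane sector and a gene of its c-ring. Atp5l read 244, 268 and 304 CPM at P3 and 697, 656 and 736 CPM at P56 (1.36), and Atp5g3 rose by 1.02.

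The imprinted genes of fetal growth had the lowest median of the pathway lists after mitosis. Of 18 tested genes of the imprinted growth network 16 were called lower, 15 by at least 2-fold, and none higher (median -2.90, and the same with genes at 0 set at their bounds). Igf2, the fetal growth factor expressed from the paternal allele, read 3406, 3177 and 3813 CPM at P3 and 62.2, 59.3 and 52.6 CPM at P56 (-5.90 ± 0.17 SE, edgeR adjusted p = 8.69e-11). Mest, an imprinted hydrolase, read 1930, 1157 and 1425 CPM against 14.7, 19.7 and 14.4 CPM (-6.53), and Plagl1, a zinc finger factor known to regulate other imprinted genes, read 1058, 636 and 654 CPM against 8, 12.8 and 10.4 CPM (-6.23). Dlk1, a membrane protein of immature cells, read 70.2, 90.9 and 79.8 CPM at P3 and 0, 0 and 0.3 CPM at P56, where 3 counts remained in all, a ratio of 840 with a 95% counting interval of 287 to 4080. Gnas and Impact were not called (-0.07 and 0.17).

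The wider insulin-like growth factor (IGF) system followed, with 13 of 18 genes called lower and 2 higher (median -2.44, the same with Igf2bp1 at its bound). Without WT P3 replicate 2 or WT P56 replicate 1, 1 was higher. Igf2bp1, which binds Igf2 messenger RNA, read 17.4, 16.8 and 19.7 CPM at P3 and had no count at P56, at least 188-fold lower. Igf2bp3 had -5.28, and Lin28b, the fetal inhibitor of let-7 processing, kept 3 counts at P56 (ratio 26.8, interval 8.98 to 131). Igf1 was lower as well (-1.61), so the pair of growth factors declined together while their ratio shifted toward Igf1 by 4.29. Igfbp7, a binding protein, was higher at P56 (1.46). Signalling genes of the neuregulin, FGF and Hippo pathways were called lower in 17 of 29 cases and higher in 4 (median -0.38). Fgfr2 (-4.33), Tead2, a DNA-binding partner of YAP (-2.96), and Erbb2, the co-receptor for neuregulin (-2.33), fell, whereas the ligands Fgf1 (2.42) and Fgf16 (2.11) rose. Fgf1 read 65.9, 82.6 and 70.2 CPM at P3 and 388, 356 and 430 CPM at P56. Yap1 itself was not called (-0.15 ± 0.08 SE, edgeR adjusted p = 0.115).

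Of 30 tested cardiac transcription factors 20 were called lower and 3 higher (median -0.68). Hand1, a factor of the early ventricle, kept 3 counts at P56 (ratio 48.9, interval 16.5 to 238). Hey2, a Notch target of compact myocardium, read 106, 104 and 86.8 CPM at P3 and 7.42, 7.57 and 7.11 CPM at P56 (-3.75 ± 0.15 SE, edgeR adjusted p = 6.77e-10). The core factors Gata4 and Nkx2-5 had -0.72 and -0.66, and Meis1, a known brake on neonatal cardiomyocyte division, -0.86. The 3 that rose were Foxo3 (0.87, not called with plain library totals), Tbx3 (0.84) and the muscle methyltransferase Smyd1 (0.69). Among natriuretic peptides and stress markers Nppa, the atrial peptide that fetal ventricle also makes, read 2682, 1353 and 3792 CPM at P3 and 162, 142 and 164 CPM at P56 (-4.07 ± 0.43 SE, edgeR adjusted p = 3.07e-06), Nppb had -1.98, and Fhl2 and the small heat shock protein Hspb7 rose (1.99 and 1.21).

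Extracellular matrix genes were mostly lower at P56. In the list of fibrillar collagens and collagen maturation 23 of 31 were called lower and 4 higher (median -1.07), and in that of basement membrane, elastic fibre and matricellular proteins 30 of 47 lower and 11 higher (median -1.16). Fbn2, the fibrillin of developing tissue, read 162, 145 and 163 CPM at P3 and 0.771, 1.19 and 1.1 CPM at P56 (-7.25 ± 0.12 SE, edgeR adjusted p = 1.77e-12). Col1a1, the main fibrillar collagen, read 612, 1066 and 947 CPM against 154, 158 and 140 CPM (-2.54 ± 0.19 SE, edgeR adjusted p = 1.34e-07). WT P3 replicate 1 was the lowest of its group for Col1a1 and still above every P56 library. Col11a1, a nucleator of fibrils, kept 2 counts at P56 (ratio 259, interval 71.5 to 2140), and Col12a1 and Col3a1 had -4.50 and -2.13. The matricellular proteins of the neonatal heart, Tnc and Postn, had -4.86 and -4.01, the fibronectin gene Fn1 -3.25, elastin (Eln) -3.30 and the crosslinking oxidase Lox -3.08.

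A minority of matrix genes rose. Dcn (decorin, which limits fibril width) read 163, 249 and 227 CPM at P3 and 606, 651 and 699 CPM at P56 (1.61), Smoc2 had 2.46, Cilp 3.04 and the short-chain collagen Col8a1 3.07. Lamb2, the laminin chain of mature basement membranes, rose by 1.19 and the prolyl hydroxylases P4ha1 and P4ha2 by 1.23 and 1.61, while P4ha3 fell (-4.92). Beside these values, summed fibroblast markers overlapped between ages, 2331 to 3054 CPM at P3 and 2937 to 3311 CPM at P56, with 5 of 12 called higher and 3 lower. Col1a1, Dcn, Fbln1, Lum and Mfap5 are on both the fibroblast and the matrix lists. The fibroblast sum is therefore not independent of the matrix values, and the share of fibroblasts was not tested.

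Receptors for hormones and neurotransmitters moved in both directions. Of 18 tested genes of thyroid and glucocorticoid action 10 were called higher and 3 lower (median 0.89). Thrb, the β receptor of thyroid hormone, read 3.84, 2.54 and 3.7 CPM at P3 and 28.2, 29.9 and 29.9 CPM at P56 (3.13 ± 0.17 SE, edgeR adjusted p = 1.17e-08), while Thra, the α receptor, read 202, 190 and 193 CPM against 97.5, 93.4 and 84.5 CPM (-1.09 ± 0.07 SE, edgeR adjusted p = 3.60e-08). Hr, a corepressor that is a direct target of thyroid hormone in other tissues, had 4.40 and Hsd11b1, which regenerates active glucocorticoid, 4.13. Dio2, which activates thyroid hormone, fell (-2.33). Of 25 genes of adrenergic and muscarinic signalling 10 were called higher and 8 lower, near the shares of all genes tested (33.8% higher and 35.1% lower). The median of 0.12 became -0.23 with plain library totals. Adra1a read 2.9, 1.75 and 1.64 CPM at P3 and 93.9, 87.1 and 75.8 CPM at P56 (5.36 ± 0.19 SE, edgeR adjusted p = 3.81e-10), and Rgs4, which shortens G protein signals, had 2.24. Prkar2b and Gnai3 fell (-1.94 and -0.95).

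Clock genes that peak at opposite times of day in adult tissues moved in opposite directions. Of 19 tested, 12 were called higher, 4 lower, and the median was 1.06. Dbp, an output gene driven directly by the CLOCK-BMAL1 pair, read 10.6, 15.2 and 13 CPM at P3 and 239, 204 and 146 CPM at P56 (3.92 ± 0.35 SE, edgeR adjusted p = 7.80e-07), with Tef at 2.66, Ciart at 2.43, Nr1d2 at 2.01, Per3 at 1.80 and Per2 at 1.31. Arntl, which encodes BMAL1 and peaks in antiphase to Dbp, read 32.2, 17.3 and 19.8 CPM at P3 and 1.25, 1.19 and 2 CPM at P56 (-3.96 ± 0.58 SE, edgeR adjusted p = 5.20e-05), with Npas2 at -3.30, Nfil3 at -0.73 and Clock at -0.71. Per1 and Nr1d1 were not called (-0.17 and 0.24, edgeR adjusted p = 0.579 and 0.273) and their groups overlapped. The 3 libraries of an age stood close together for most of these genes. The time of day at which hearts were taken is not in the labels, so age and time of collection cannot be told apart for this list.

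**Figure D4:**
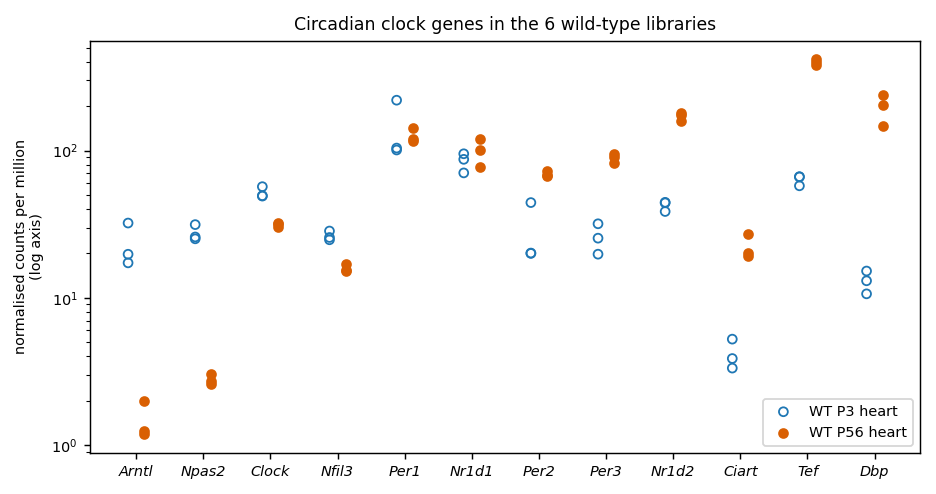
Levels of 12 clock genes in the 6 WT libraries, in TMM-scaled CPM on a log axis; each point is a library, open blue at P3 and filled orange at P56. Arntl and Npas2 are lower in every P56 library and Dbp, Tef and Ciart higher, while Per1 and Nr1d1 overlap.

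CLOCK and BMAL1 bind the E-box, searched as CACGTG, and the promoters of 2 output genes of the list are shown with it in capitals. It was found in 6 of 21 windows of the clock list (28.57%), 9.529% of the windows of tested genes and 7.15% of all windows. The share was not particular to clock genes, at 28.57% in the IGF list (6 of 21) and 27.78% in the ATP synthase list (5 of 18). Ciart holds it 3 times in the 150 bases before its start.
Tef (chr15:81802523-81802672, plus strand): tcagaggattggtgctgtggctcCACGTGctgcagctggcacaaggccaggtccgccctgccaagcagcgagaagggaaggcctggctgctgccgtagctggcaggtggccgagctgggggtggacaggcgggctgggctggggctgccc
Ciart (chr3:95882229-95882378, minus strand): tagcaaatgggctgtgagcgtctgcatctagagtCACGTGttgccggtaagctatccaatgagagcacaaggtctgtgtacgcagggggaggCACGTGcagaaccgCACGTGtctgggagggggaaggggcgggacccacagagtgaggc

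Antigen presentation and interferon-stimulated genes were higher at P56. All 13 genes of MHC class I presentation were called higher, each by at least 2-fold (median 2.94), as were all 7 tested of class II (median 5.72), 18 of 23 interferon-stimulated genes (median 1.69, none lower) and 11 of 16 complement genes (median 2.11, 1 lower, and 2 lower without D1-Tg P3 replicate 1 or D1-Tg P56 replicate 1 or 2). H2-K1, a classical class I chain, read 25.9, 29 and 29.3 CPM at P3 and 521, 830 and 262 CPM at P56 (4.26 ± 0.32 SE, edgeR adjusted p = 1.61e-07). The immunoproteasome subunit Psmb8 had 3.84 and the class I transactivator Nlrc5 4.08. WT P56 replicate 3 was the lowest P56 library here and in sum (1642 CPM of class I genes against 2940 and 3662 CPM), well above the P3 libraries (319.1 to 409 CPM). For class II, H2-Aa read 0.111, 0.741 and 0.37 CPM against 65.8, 88.3 and 48.3 CPM (7.33 ± 0.54 SE, edgeR adjusted p = 1.25e-07, and 8.06 without WT P3 replicate 2), its chaperone Cd74 had 7.12 and the transactivator Ciita 2.88. Igtp, an interferon-induced GTPase, read 5.51, 9.85 and 7.18 CPM at P3 and 163, 118 and 35.2 CPM at P56 (3.81 ± 0.49 SE, edgeR adjusted p = 1.92e-05), and Iigp1 had 3.57. Ddx58, Oasl2 and Rtp4 were not called (0.35, 0.37 and 0.68).

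The interferon-stimulated response element, a pair of GAAA repeats bound by STAT and IRF factors, was searched as GAAA, any 2 bases and GAAA. It was found in 65% of the windows of the interferon-stimulated list, 3.056% of those of tested genes and 3.443% of all windows. It stands in capitals in the promoters of Igtp and of the antiviral genes Ifit3 and Ifit1, whose log2 fold changes were 3.17 and 2.87, the latter 3.58 without WT P3 replicate 2 (TTTC repeats are the other strand).
Igtp (chr11:58199406-58199555, plus strand): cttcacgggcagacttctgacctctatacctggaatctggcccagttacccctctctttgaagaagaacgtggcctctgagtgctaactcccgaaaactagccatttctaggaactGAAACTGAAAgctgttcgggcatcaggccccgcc
Ifit3 (chr19:34583379-34583528, plus strand): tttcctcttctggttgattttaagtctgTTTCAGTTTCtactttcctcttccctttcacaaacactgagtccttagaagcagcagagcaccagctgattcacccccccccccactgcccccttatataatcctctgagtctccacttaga
Ifit1 (chr19:34640739-34640888, plus strand): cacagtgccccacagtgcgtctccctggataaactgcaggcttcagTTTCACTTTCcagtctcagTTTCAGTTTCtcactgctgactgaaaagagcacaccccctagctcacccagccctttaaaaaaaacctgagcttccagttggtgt
The class II promoters of H2-Aa and H2-Eb1 (5.72), printed with the NF-Y box in capitals, carry that box close before the start, where it is a known part of the class II promoter module. The box was also common in the promoters of the mitosis list, which moved the other way.
H2-Aa (chr17:34287824-34287973, minus strand): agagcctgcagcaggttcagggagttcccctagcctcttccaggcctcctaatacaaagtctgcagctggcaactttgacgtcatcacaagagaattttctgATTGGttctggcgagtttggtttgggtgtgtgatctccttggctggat
H2-Eb1 (chr17:34305717-34305866, plus strand): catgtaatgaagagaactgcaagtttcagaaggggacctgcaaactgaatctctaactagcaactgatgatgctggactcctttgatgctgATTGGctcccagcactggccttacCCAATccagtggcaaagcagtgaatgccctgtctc

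Macrophage markers rose beside these genes. Of 12 tested, 10 were called higher and none lower, with sums of 109.5 to 140.6 CPM at P3 and 529.3 to 656 CPM at P56. Lyz2 (lysozyme) read 15.4, 19.1 and 17.5 CPM at P3 and 201, 207 and 158 CPM at P56 (3.44), Cd163 had 2.92 and Timd4, a marker of long-lived resident macrophages, read 0, 0 and 0.264 CPM against 3.47, 4.1 and 3.4 CPM. C1qa, which macrophages make, rose by 2.67 among the complement genes, as did C7 (5.08) and C4b (3.42). Neutrophil genes moved down, 6 of 10 called lower and 1 higher, and mast cell genes too, with 5 of 6 called lower. The part of these cell types in the antigen presentation and interferon values was not tested.

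Several other cell type marker lists separated the ages as well. Epicardial and mesothelial markers fell in 11 of 11 cases, from sums of 205.5 to 285.5 CPM to sums of 20.7 to 28.24 CPM; Msln read 32.2, 33.8 and 47.4 CPM at P3 and 0.964, 0.182 and 0.4 CPM at P56 (-6.19, and -7.01 without WT P56 replicate 1). Atrial markers fell in 9 of 10 cases, from 3607, 1845 and 5559 CPM to 216.6, 241.1 and 297.4 CPM. Myl4, Myl7 and Nppa are on this list and make up most of the sum. The other 7 markers summed to 303.6, 158.8 and 480.9 CPM at P3 and 52.73, 63.57 and 70.95 CPM at P56, with WT P3 replicate 2 lowest and replicate 3 highest. Bmp10, a ligand that adult mouse heart makes in the right atrium, read 15.4, 6.72 and 29.5 CPM at P3 and had no count at P56, at least 180-fold lower. Whether atria were kept in equal measure at both ages is not in the labels, and the atrial share and age cannot be told apart. Ventricular markers were divided, with 4 of 6 called lower, 3 of them by at least 2-fold, and 2 higher (median -0.83). The 2 higher were Myl2 (0.78) and Myl3 (1.36), while Kcne1 and Hey2 were among those lower. The ventricular sum was 7703 to 10833 CPM at P3 and 16185 to 18184 CPM at P56. Endocardial markers fell in 6 of 7 cases (Plvap, -2.51) and erythroid markers in 8 of 10, among them Hba-a1 (-2.79). Endothelial markers were called higher in 5 of 13 cases and lower in 4, near the shares of all genes tested (33.8% and 35.1%). Aqp1, the water channel of capillaries, read 87.6, 90.7 and 78.7 CPM at P3 against 536, 465 and 782 CPM at P56 (2.79). The number called lower fell to 1 without WT P3 replicate 3 or without WT P56 replicate 2. Smooth muscle and pericyte genes were split, 5 called higher and 5 lower: Cnn1 and Acta2, which developing cardiomyocytes and fibroblasts also express, fell (-4.07 and -2.25), while Rgs5 and Myh11 rose (1.70 and 1.37). Immediate early genes, which respond to handling, were called higher in 5 of 19 cases and lower in 6, and heat shock genes higher in 5 of 14 and lower in 4; both medians changed sign with plain library totals (0.14 to -0.20 and 0.26 to -0.09).

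**Figure D5:**
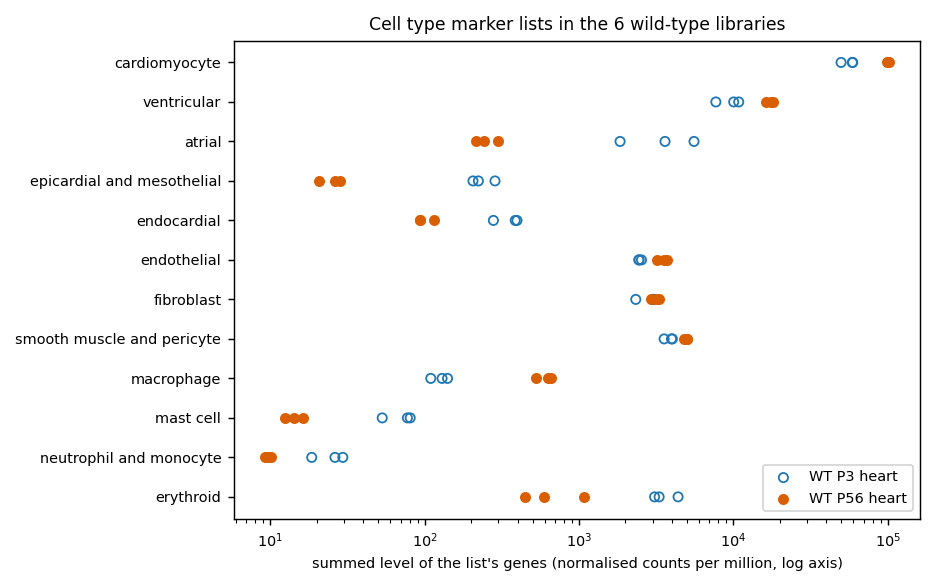
Summed level of cell type marker lists in the 6 WT libraries, in TMM-scaled CPM on a log axis; each point is a library, open blue at P3 and filled orange at P56. Atrial, epicardial, endocardial, mast cell, neutrophil and erythroid sums lie lower at P56, and the fibroblast sums overlap. Macrophage, cardiomyocyte, ventricular, endothelial and smooth muscle sums lie higher, although most of the ventricular markers were called lower. Calls were 5 of 13 higher and 4 lower for endothelial markers. For smooth muscle and pericyte markers they were 5 of 12 higher and 5 lower. Des, which is on both the smooth muscle and the sarcomere list, was called higher (log2 fold change 1.08).

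Genes of RNA processing and translation were lower by small amounts. Of 25 splicing regulators 16 were called lower and 5 higher (median -0.41): Hnrnpa1 had -1.46 and Mbnl3 -2.51, whereas Rbfox1, which drives muscle exons, read 15.7, 17.5 and 15.8 CPM at P3 and 70.7, 75.2 and 73.5 CPM at P56 (2.16), and Mbnl1 rose from a mean of 81.7 to 163 CPM. Rbm20, the titin splicing factor, was not called (-0.11 ± 0.07 SE, edgeR adjusted p = 0.177). Of 66 cytosolic ribosomal protein genes 48 were called lower and 1 higher, with a median of -0.28 (2 higher without WT P3 replicate 3 or D1-Tg P3 replicate 1 or 2). The 1 gene lower by at least 2-fold was Rpl3, at 553, 573 and 627 CPM against 207, 198 and 198 CPM (-1.54). Its striated muscle paralogue Rpl3l, which is outside the list, read 4.23, 4.24 and 4.22 CPM at P3 and 301, 303 and 322 CPM at P56 (6.19 ± 0.14 SE, edgeR adjusted p = 1.83e-11). The elongation factor genes moved in the same way, Eef1a1 from 6495 ± 264 (SD, n = 3) to 1358 ± 55.4 CPM (SD, n = 3) and its muscle and nerve paralogue Eef1a2 from 356 ± 33.6 to 1962 ± 111 CPM.

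The genes that moved furthest add other functions to these lists. Called at least 8-fold higher were 304 genes and at least 8-fold lower 454. Among the steepest rises were Acsm5, a medium-chain acyl-CoA synthetase without a count at P3 (at least 100-fold higher), Retnla, a product of alternatively activated macrophages (at least 72.4-fold), the methyltransferase Inmt, the carboxylesterase Ces1d and the class I genes H2-Q6 and H2-Q9. Tuba8, an α-tubulin, read 0.947, 1.27 and 1.06 CPM at P3 and 229, 244 and 215 CPM at P56 (7.70 ± 0.27 SE, edgeR adjusted p = 3.74e-10), and Ces1d read 0.612, 0.9 and 1.06 CPM against 160, 177 and 142 CPM (7.52). Among the steepest declines were Plppr1, a membrane protein of neurite growth with no count at P56 (at least 193-fold lower), Capn6, a calpain that lacks protease activity, at 101, 87.7 and 121 CPM against 0.0964, 0.365 and 0.1 CPM (-9.01, and -9.93 without WT P56 replicate 2), the steroid hydroxylase Cyp17a1 (at least 28.8-fold lower) and Agtr2, the fetal angiotensin receptor (at least 26.4-fold lower).

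The same maturation in hearts with the cardiomyocyte Dyrk1b transgene was read for the 20 pairs, the genes named singly and the 24 genes that moved furthest, 84 in all. The test was the age effect in D1-Tg minus that in WT, which was called for 2109 of the 14212 genes (14.8%) and for 20 of these 84 (23.8%). In 13 of the 20 the change was smaller in D1-Tg or opposite, and in 7 it was larger. The 24 genes that moved furthest were chosen by their change in WT, which the difference subtracts. Neither this split nor the share of 23.8% is therefore independent of that choice. Among the 7 with a larger change were Acta1 (difference 3.97), Igf2 (-0.88) and Fabp5 (-0.66). Myh7, which fell from a mean of 16137 to 161 CPM in WT, went from 13402 to 2356 CPM in D1-Tg (difference 4.14 ± 0.71 SE, edgeR adjusted p = 0.00264). The difference was 1.99 for Tnni1, 2.92 for Nppa and 3.48 for Nppb, which went from 261 to 736 CPM in D1-Tg. For the adult genes Tnni3, Atp2a2, Slc2a4 and Ckm it was -0.67, -0.48, -0.48 and -0.77. For the other 64 genes the difference was not called, which does not show that the change was equal.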

How the data were processed

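RNA from WT and D1-Tg hearts at P3 and P56, 3 libraries each, was sequenced. The authors deposited 1 file a library; per the file headers it holds read counts, which by their decimals are expected counts that were not normalized. The submitters' processing notes name HISAT2 2.0.4, STAR 2.3.0 and DESeq2 and the builds mm8 and mm9, with no role or order; which of them made the counts, and whether strand was used, is not given in the sources used here. The design text and the extraction protocol name different sequencing platforms. Total counts were 15742474 to 16756522 (WT P3) and 11174527 to 12099794 (WT P56), and floors and counting intervals cover counting error only.

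Counts were rounded to whole numbers. Genes passed edgeR's filterByExpr over the 4 groups, libraries were scaled by TMM, and edgeR 4.0.16 (quasi-likelihood test, R 4.3.3) was fitted to all 12 libraries with 4 group means, Benjamini-Hochberg adjustment over all 14212 genes and a threshold of 0.05, so the spread is shared with the D1-Tg groups. The difference between genotypes is the interaction contrast. Gene IDs were matched to RefSeq (GRCm38.p6) for symbols (99.29% found), and the promoter windows and sequences are RefSeq's. Where a gene had no count in a group, the bound uses a floor of 3 counts over the group. Same-numbered libraries of the ages did not vary together (correlations of deviations -0.107, 0.0049 and -0.0571), so the numbers were not used as pairs.

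The members, gene lists and tests were chosen with earlier results of these data known, so no count of a list's members is independent support. The rule for named genes took the 12 highest and 12 lowest called genes, the 3 highest and 3 lowest of each list with up to 3 called against its median, the isoform pairs and single genes named in the rule. Some genes that the rule takes are not reported here. Named outside it, after their values were seen, were Acadm, Atp5g3, C1qa, Cd36, Cdc20, Cdc6, Cdk1, Ect2, Eef1a1, Eef1a2, Eln, Fn1, Gata4, H2-Eb1, Ifit1, Ifit3, Kcnd2, Kcnip2, Kif11, Lox, Mcm5, Mcm6, Nkx2-5, Nr1d1, Nr1d2, Per1, Per2, Per3, Plagl1, Postn, Rpl3l, Tuba1a, Tuba4a and Yap1. The E-box and the interferon motif were also added after values were seen; of 8 motif sets searched, those for D-box and TATA are not described. Alternatives were DESeq2 1.42.0, other size factors, WT libraries alone, no filter, a minimum fold change, a term for Y-linked expression, thinning, a replicate block, leaving out each library or the 10 most counted genes, and plain library totals, the last added after seeing the data.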

Additional observations from a re-analysis of the deposited data

Results flagged for a closer look

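The change with age differed between D1-Tg and WT hearts, by the test of the difference itself, for 20 of the 84 genes read. In the following values a difference is the log2 age effect in D1-Tg minus that in WT. The share called over all genes was 14.8%. Some of the 84 were chosen by an extreme change in WT, so the shares are not a like comparison.

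The largest difference with counts in all groups was that of Myh7 (4.14), followed by Acta1 (3.97), which went from 108 to 6544 CPM in D1-Tg and from 94.7 to 368 CPM in WT, Nppb (3.48) and Nppa (2.92). Dyrk1b itself had 2.87, going from 84.7 to 798 CPM in D1-Tg and from 75.3 to 96.9 CPM in WT. These counts do not separate the mouse Dyrk1b transgene from the endogenous gene. Sncb had 9.08, a fitted value against WT P56 libraries without a count and so no measure of size. Tnni1 had 1.99, Col1a1 1.48, Cacna1h 1.08 and Ryr2 0.61. The difference was negative for Ccnd2 (-1.52), Cdkn1c (-1.10), Igf2 (-0.88), Ckm (-0.77), Tnni3 (-0.67), Fabp5 (-0.66), Eno3 (-0.66), Atp2a2 (-0.48), Slc2a4 (-0.48) and Slc25a4 (-0.37).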

How the results depend on the processing

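With a minimum log2 fold of 1 in the test (glmTreat) 1398 genes were called higher, 1359 lower (1359 also at least 2-fold lower) and 111 for the difference between genotypes. With plain library totals 3128 were higher and 3211 at least 2-fold lower. Leaving out 1 library gave 4517 to 4879 higher, 4703 to 5275 lower, 2012 to 2113 at least 2-fold higher, 2050 to 2228 at least 2-fold lower and 1538 to 2102 for the difference. DESeq2, other size factors, WT libraries alone, no filter, thinning and the Y-linked term kept these counts within 1.5 times; the difference between genotypes has no value with WT libraries alone. Of 234 named genes called, 50 lost the call with glmTreat. Under the other alternatives 14 lost it, 5 of these 14 without a WT library.

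The replicate numbers did not pair the libraries; with them as a block, 4728 genes were higher and 4860 lower (2055 and 2086 by at least 2-fold).

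Direction changed as follows. With plain library totals the median became -0.16 for calcium handling, -0.23 for adrenergic signalling and -0.10 for both fibroblast and endothelial markers, -0.20 for immediate early genes and -0.09 for heat shock genes, and the log2 fold change became -0.08 for Cpt1b, -0.08 for Idh2, -0.17 for Impact, -0.11 for Nr1d1, -0.04 for Ppargc1a and 0.00 for Ryr2; the scaling itself moved the median of all genes by -0.34. The smooth muscle median was 0.00 without WT P56 replicate 3, and that of immediate early genes ranged from -0.03 (without WT P3 replicate 1; -0.01 without WT P56 replicate 1) to 0.17 when 1 library was left out. Leaving out 1 library at a time, Cdkn1a ranged from -0.87 (without WT P56 replicate 3) to 0.29 (without WT P3 replicate 1) and was 0.01 without WT P56 replicate 1, while Per1 ranged from -0.36 to 0.30 and Slc2a1 from -0.49 to 0.03, each highest without WT P3 replicate 1; the cause was not tested. Depth limits the genes with few counts at an age, whose sizes are bounds or wide intervals.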

Other observations

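Grouping tested genes by the start of their symbol gave 172 families of at least 10 tested genes, which were read after the values were seen. Mitochondrial and cytosolic ribosomes parted. Of 49 genes whose symbol starts with Mrpl, proteins of the large mitochondrial ribosomal subunit, 47 were called higher at P56 and none lower (median log2 fold change 0.81), and of 29 Mrps genes of the small subunit 26 were higher and none lower (0.80), while the cytosolic list had 48 of 66 lower. Of 11 Coq genes, which make coenzyme Q, the electron carrier between the complexes, 10 were higher (1.33).

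Among the families that declined, 12 of 17 Adamts proteases, which process matrix, were called lower and 1 higher (-1.17), 11 of 12 protocadherins of the Pcdhga cluster lower and none higher (-0.98), 22 of 35 kinesins lower and 8 higher (-0.80), and 9 of 10 Srsf splicing factors lower. Among immune families, 10 of 14 Ccl chemokines were higher and 1 lower (2.03), 14 of 15 Ifi genes higher (2.09) and 15 of 21 C-type lectins (Clec) higher and 3 lower (1.23). Of 14 tested Tuba and Tubb tubulin genes 4 were called higher and 9 lower (median -0.68): Tuba8 rose by 7.70 and Tuba4a by 4.18, and Tuba1a fell (-1.28), the last pair named after their values were seen.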
